A study of Mus musculus with 6 samples.

Results

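The hypoxia and glycolysis genes described here are Slc2a1, Hk2, Pfkfb3, Pgk1, Ldha, Egln3, Vegfa, Adm, Car9 and Bnip3, 10 of the 23462 mouse genes that the array measured under a RefSeq symbol. They were chosen by name, as genes induced when oxygen is low or as steps of sugar breakdown, and every non-control probe whose accession maps to one of these symbols was taken, which gave 16 probes. The tested animals were 3 male mice labelled miR-31 knockout and the controls were 3 male mice labelled wildtype, with 1 single-colour Agilent array for the colonic epithelium of each mouse. The epithelium was separated by flow before RNA was prepared, and RNA was amplified linearly and labelled with Cy3. Strain, age, gate and construction of the allele are not given in the sources used here, nor is it stated whether the loss of miR-31 was confined to the epithelium. Signals are given as log2 of the processed intensity minus the 75th percentile of the array, so that 0 is the level of that percentile. No level of a probe is set against that of another probe.

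Cells sense oxygen through prolyl hydroxylases of the Egln family, which use oxygen to mark the alpha subunits of hypoxia-inducible factors (HIF) for removal by the Vhl protein. When oxygen is short the subunits persist, pair with Arnt and raise the transcription of genes for glucose uptake, glycolysis, acid handling, vessel growth and the removal of mitochondria. The epithelium of the colon lies between a well perfused mucosa and a lumen almost free of oxygen, and its surface cells are known for a steep oxygen gradient and for HIF activity that helps to maintain the barrier. The question here is how the transcripts of this programme stood in colonic epithelium without miR-31 relative to wild-type epithelium.

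The RNA that the knockout is labelled as lacking is given first, from RefSeq (GRCm38.p6), with its seed, bases 2 to 8, in capitals. No probe on the array measured Mir31 or its host transcript, so its loss was not checked here.
mmu-miR-31-5p, chr4:88910614-88910635, minus strand: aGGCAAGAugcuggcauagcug

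Promoters of 4 members are printed 5′ to 3′ on the strand of the gene, from 250 bases before to 50 bases after the RefSeq start (GRCm38.p6). They belong to Egln3, Bnip3 and Car9, which were highest on the same 2 wild-type arrays, and to Adm, whose groups did not overlap, and were picked after those values were seen. Capitals mark ACGTG, a form of the core that HIF binds, or its reverse complement CACGT. Other forms of the core were not searched for and are not marked.
Egln3 promoter, chr12:54203825-54204124, minus strand: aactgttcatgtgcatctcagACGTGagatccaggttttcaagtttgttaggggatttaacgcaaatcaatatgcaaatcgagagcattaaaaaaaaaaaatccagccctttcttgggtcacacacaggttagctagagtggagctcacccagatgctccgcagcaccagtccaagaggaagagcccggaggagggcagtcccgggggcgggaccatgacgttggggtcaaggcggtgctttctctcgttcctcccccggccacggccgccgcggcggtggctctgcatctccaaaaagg
Bnip3 promoter, chr7:138909457-138909756, minus strand: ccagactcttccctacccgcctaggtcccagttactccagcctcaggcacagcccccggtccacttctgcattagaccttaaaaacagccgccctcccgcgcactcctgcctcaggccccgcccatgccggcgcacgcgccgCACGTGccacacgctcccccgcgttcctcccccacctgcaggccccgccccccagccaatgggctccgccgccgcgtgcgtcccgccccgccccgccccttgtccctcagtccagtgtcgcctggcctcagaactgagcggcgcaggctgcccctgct
Car9 promoter, chr4:43506776-43507075, plus strand: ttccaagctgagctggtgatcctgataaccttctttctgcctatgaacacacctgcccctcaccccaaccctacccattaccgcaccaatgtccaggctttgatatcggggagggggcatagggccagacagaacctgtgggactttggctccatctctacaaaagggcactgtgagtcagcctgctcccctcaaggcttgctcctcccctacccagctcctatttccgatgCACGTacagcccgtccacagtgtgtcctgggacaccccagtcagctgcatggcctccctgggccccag
Adm promoter, chr7:110627407-110627706, plus strand: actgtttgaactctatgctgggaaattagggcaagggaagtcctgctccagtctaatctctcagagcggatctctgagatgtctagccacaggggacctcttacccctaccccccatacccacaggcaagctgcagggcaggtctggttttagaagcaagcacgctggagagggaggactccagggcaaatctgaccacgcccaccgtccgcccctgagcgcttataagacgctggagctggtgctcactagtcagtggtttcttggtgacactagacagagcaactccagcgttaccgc
The Bnip3 window holds CACGTG, which reads as ACGTG on both strands with its first bases at -108 and -107 from the start. ACGTG begins at -229 in Egln3 and, on the opposite strand, at -18 in Car9. The Adm window has neither ACGTG nor CACGT, which says nothing of other forms of the core or of sites elsewhere. RefSeq gave 13 start windows for the 10 members, and 10 of these windows, or 76.9%, held ACGTG on either strand. Of all 32851 promoter windows of that length 6447, or 19.6%, held it. By gene it was 9 of 10 members, the exception being Adm, against 21.8% of all 27025 genes. The windows of the members also held more CG dinucleotides, with a median of 18, against 7 over all windows, and ACGTG itself contains CG. A match is a description of letters and not a site of binding.

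All 10 listed markers of epithelium, all 10 of absorptive colonocytes and all 8 of goblet cells were well above background on all 6 arrays. So were 8 of 10 leukocyte, 5 of 6 smooth muscle and 5 of 8 fibroblast markers, so detection alone does not single out epithelium. The share of probes well above background ran from 66.6% to 75.6% over the arrays. The extraction software marked spots as non-uniform or as outliers on 17%, 12.8% and 7.44% of spots on knockout arrays 1 to 3, and on 17.3%, 15.5% and 4.95% on wild-type arrays 1 to 3. Marked spots were left out of the test, and Egln3 and Adm, with only 1 unmarked array left in a group, could be tested only with marked spots kept. On 300 probes spotted repeatedly, a marked spot differed from the other spots of its probe by a median of 0.12 on the log2 scale, against 0.06 for an unmarked spot. Wild-type replicate 3 stood apart from its group: the leading principal component carried 38.8% of the variance, and on it the knockout arrays lay at 32.1, 34.4 and 22.1, and the wild-type arrays at -41.1, -39.2 and -8.38. All 6 arrays shared a slide, with knockout arrays in its first row and wild-type arrays in its second, so row and genotype cannot be told apart. Each animal gave 1 array, and the tissue is a bulk sample in which fewer cells of a type and less RNA per cell cannot be told apart.

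None of the 8 members tested with marked spots left out passed an adjusted p of 0.05 (limma with Benjamini-Hochberg adjustment over all 27916 features), and adjusted p ran from 0.767 to 0.955. In that test 0.208% of all features were called, 0.147% higher and 0.0609% lower in knockout tissue. Of the 8 members, 3 had a positive and 5 a negative log2 change, where 17163 of all 27916 features had a negative one. Of the 8, 0 reached an unadjusted p of 0.05, against 10.7% of all features. Their median log2 change was -0.09, beside -0.06 over all features, and the median size of the change was 0.10, beside 0.16. With marked spots kept, 10 members were tested and 0 passed, against 0.17% of 32275 features, 0.127% higher and 0.0434% lower in knockout tissue. Of these 10, 8 had a negative change, as had 19392 of the 32275 features. The median of the members was -0.14, beside -0.05 over all features. An unadjusted p under 0.05 was found for 2 members, Egln3 and Adm, and for 10.4% of all features.

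**Figure D1:**
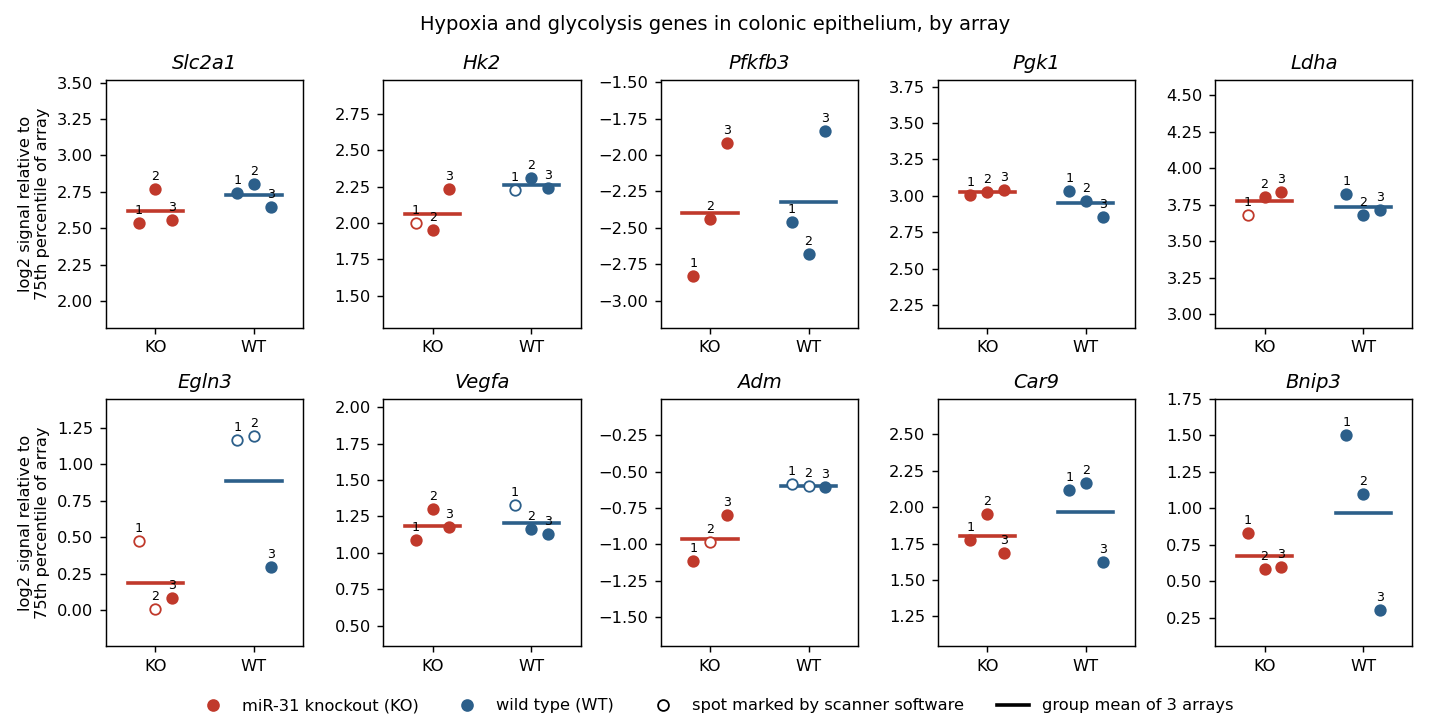
Level of each of the 10 genes on each array, as log2 signal relative to the 75th percentile of the array (vertical axes, each spanning the same range of log2 units), for 3 miR-31 knockout and 3 wild-type mice. Points are arrays with their replicate number, open points are spots marked by the scanner software, and bars are means of 3 arrays; the 2 groups overlap for every gene but Adm.

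Glucose uptake and the steps of glycolysis differed little between the groups. Slc2a1, the glucose carrier GLUT1 of most tissues, lay at 2.53, 2.77 and 2.55 in knockout epithelium and at 2.74, 2.80 and 2.65 in wild-type epithelium. The groups overlapped through knockout replicate 2, and the log2 change was -0.11 ± 0.12 (SE, n = 3 and 3), with a 95% interval from -0.40 to 0.18 (limma, adjusted p = 0.792). Hk2, the hexokinase that traps glucose in the cell as its phosphate, lay at 2.0, 1.95 and 2.23 in knockout epithelium and at 2.22, 2.31 and 2.24 in wild-type epithelium, the first value of each group from a marked spot. Only knockout replicate 3 came up to the wild-type level. Without the marked spots the change of Hk2 was -0.18 ± 0.18 (SE, n = 2 and 2), with an interval from -0.63 to 0.27 (limma, adjusted p = 0.771), and with them it was -0.20 ± 0.13 (adjusted p = 0.643).

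Pfkfb3, whose product makes the activator that drives phosphofructokinase, varied widely between animals of the same genotype. Its values were -2.83, -2.44 and -1.92 in knockout epithelium and -2.46, -2.68 and -1.84 in wild-type epithelium, so that replicate 3 was the highest of each group and the groups spanned nearly the same range. The log2 change was -0.07 ± 0.29 (SE, n = 3 and 3), with an interval from -0.77 to 0.63 (limma, adjusted p = 0.955), and its sign turned with the array left out (-0.31 to 0.17). A second, dimmer probe, not well above background on knockout replicate 1, gave -0.59 ± 0.31 (limma over every probe, adjusted p = 0.562). In that probe-by-probe test 0.208% of 33231 probes were called, and 0 of the members' probes.

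Pgk1, a glycolytic kinase that yields ATP, had the narrowest knockout group of the members, with 3.00, 3.03 and 3.04 in knockout epithelium, against 3.03, 2.96 and 2.85 in wild-type epithelium. Its change of 0.07 ± 0.11 (SE, n = 3 and 3) had an interval from -0.19 to 0.34 (limma, adjusted p = 0.858). Ldha, which turns pyruvate into lactate, lay at 3.68 (marked), 3.80 and 3.84 in knockout epithelium and at 3.82, 3.68 and 3.71 in wild-type epithelium. The ranges of Ldha coincided almost wholly, and the change without the marked spot was 0.08 ± 0.13 (SE, n = 2 and 3), with an interval from -0.24 to 0.40 (adjusted p = 0.870). The second Ldha probe could be read only with marked spots, since all its spots but that of wild-type replicate 3 were marked, and it gave 2.97, 1.91 and 2.53 in knockout epithelium against 3.32, 2.72 and 3.12 in wild-type epithelium. That change, -0.59 ± 0.29 (limma, adjusted p = 0.552), has the other sign from the first probe, so the direction of Ldha depends on the probe.

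**Figure D2:**
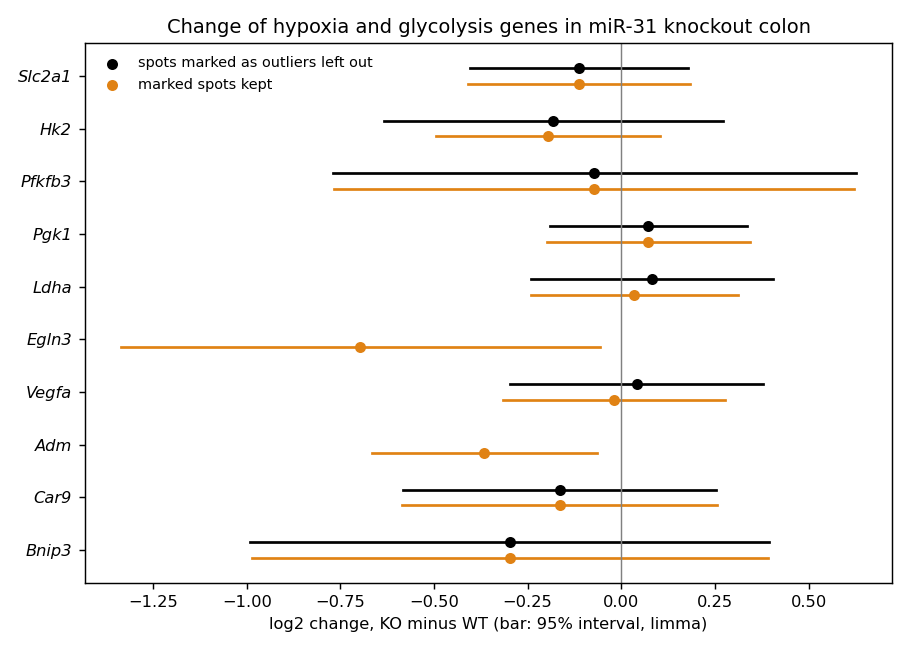
Log2 change of each gene, miR-31 knockout minus wild type (horizontal axis), with its 95% interval from limma, with spots marked as outliers left out (black) or kept (orange). The intervals of 8 genes span 0 in every fit shown, while those of Egln3 and Adm, fitted only with marked spots, lie below 0 before any adjustment for the number of features.

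Among the sensors of oxygen, Egln3 had the largest change of the members. Egln3, the prolyl hydroxylase PHD3, is both a brake on HIF and a gene that HIF induces. It lay at 0.48, 0.01 and 0.08 in knockout epithelium and at 1.17, 1.19 and 0.29 in wild-type epithelium, with the first 2 values of each group from marked spots. Wild-type replicates 1 and 2 stood above every knockout array, and wild-type replicate 3 lay between knockout replicates 1 and 3. With marked spots kept the change was -0.70 ± 0.27 (SE, n = 3 and 3), with an interval from -1.33 to -0.06 that is not adjusted for the number of features (limma, unadjusted p = 0.0364, adjusted p = 0.447), and it did not pass.

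Of the secreted vascular factors, Vegfa showed no difference larger than its spread and Adm was lower on each knockout array without passing the test. Vegfa, the main growth factor for vessels, lay at 1.09, 1.30 and 1.18 in knockout epithelium and at 1.33 (marked), 1.16 and 1.13 in wild-type epithelium. The groups of Vegfa overlapped, and its change was 0.04 ± 0.14 (SE, n = 3 and 2), with an interval from -0.30 to 0.38 (limma, adjusted p = 0.943). The 3 other Vegfa probes gave 0.14 ± 0.13, -0.05 ± 0.14 and 0.25 ± 0.15, without a common sign. Adm, the precursor of the vasodilator peptide adrenomedullin, lay at -1.11, -0.98 (marked) and -0.80 in knockout epithelium and at -0.59 (marked), -0.60 (marked) and -0.61 in wild-type epithelium. It was the only member whose groups did not overlap with marked spots kept, where 15.5% of all features did not overlap, 10.8% with knockout lower. The change of Adm was -0.37 ± 0.13 (SE, n = 3 and 3), with an unadjusted interval from -0.67 to -0.07 (limma, unadjusted p = 0.0235, adjusted p = 0.402).

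As for Egln3, wild-type replicates 1 and 2 were the highest of the 6 arrays for Car9 and Bnip3. The same arrays also lay at the wild-type end of the leading principal component of 24064 features, at -41.1 and -39.2. Car9, a carbonic anhydrase at the cell surface that helps to dispose of acid, lay at 1.77, 1.95 and 1.69 in knockout epithelium and at 2.12, 2.16 and 1.63 in wild-type epithelium, with a change of -0.16 ± 0.18 (SE, n = 3 and 3), an interval from -0.58 to 0.25 and an adjusted p of 0.788 (limma). Its second probe gave 1.55, 1.74 and 1.62 in knockout epithelium against 1.87, 1.88 and 1.55 in wild-type epithelium, with wild-type replicates 1 and 2 again the highest and with knockout replicate 1 and wild-type replicate 3 the lowest. Bnip3, a receptor on mitochondria that marks them for removal by autophagy, lay at 0.83, 0.58 and 0.60 in knockout epithelium and at 1.5, 1.1 and 0.30 in wild-type epithelium. Here wild-type replicate 3 was the lowest of all 6 arrays, and the change was -0.30 ± 0.29 (SE, n = 3 and 3), with an interval from -0.99 to 0.40 (limma, adjusted p = 0.767).

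In these 3 genes the difference between the genotypes was no larger than the difference inside the wild-type group. Wild-type replicate 3 lay below the mean of the other wild-type arrays by a log2 difference of -0.89 for Egln3, -1.0 for Bnip3 and -0.51 for Car9. The mean of the knockout arrays lay below the mean of those same arrays by -0.99, -0.63 and -0.34, and differed from wild-type replicate 3 by -0.10, 0.37 and 0.18, for the same genes in that order. Wild-type replicate 3 lay 0.49 below the nearer of the other wild-type arrays for Car9 and more than 0.5 below for Egln3 and Bnip3. It lay at least 0.5 below each of the other wild-type arrays in 5.86% of the 25138 features measured on all 3 with marked spots left out, and in 5.02% of 32275 features with them kept. Without wild-type replicate 3 the change of Bnip3 was -0.63 (adjusted p = 0.202) and that of Car9 -0.34 (adjusted p = 0.304), and that of Egln3 with marked spots kept was -0.99 (adjusted p = 0.147), by limma in each case, so none passed. Without wild-type replicate 1 the change of Bnip3 was -0.03. Pfkfb3 had the opposite shape, with wild-type replicate 3 above the mean of the other wild-type arrays by 0.73, and the remaining members differed in this way by 0.15 at most.

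**Figure D3:**
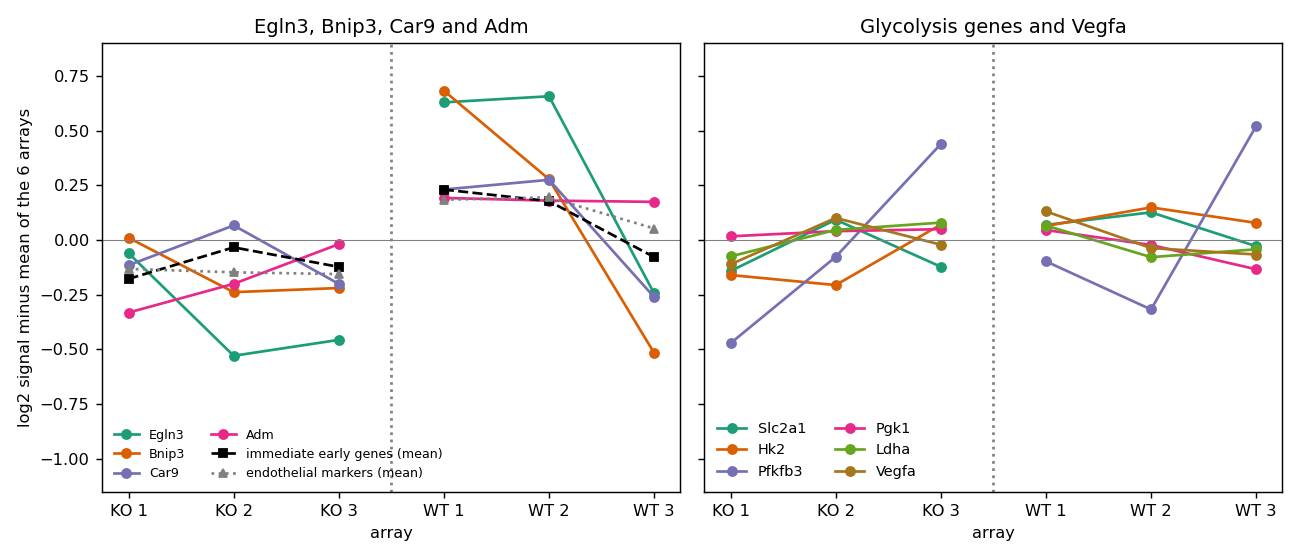
Log2 signal of each gene minus its mean over the 6 arrays (vertical axis), by array (horizontal axis, knockout left of wild type), with marked spots kept; lines only join the points of a gene. Egln3, Bnip3 and Car9 lie high on wild-type arrays 1 and 2 and low on wild-type array 3, Adm is level across the wild-type arrays, and the dashed and dotted lines give the mean of the immediate early genes and of the endothelial markers on the same scale.

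Marker lists of other kinds also differed between the arrays. The means given here were taken with marked spots kept, over all markers that could then be tested. Counts of markers tested and called are with marked spots left out unless stated, and so can cover fewer markers. The mean of the immediate early genes, which respond within minutes to handling of tissue, lay at -0.18, -0.03 and -0.12 in knockout epithelium and at 0.23, 0.18 and -0.08 in wild-type epithelium, as deviations from the mean over arrays. All 10 of these genes were well above background on all 6 arrays, 8 were tested and 0 were called. Egr1, with the smallest p of the 8 tested, had a log2 change of -0.42 ± 0.15 (limma, adjusted p = 0.399). With marked spots kept all 10 were tested and 0 were called. There Zfp36 had the smallest p, with -0.54 ± 0.15 by a probe marked on 5 arrays (adjusted p = 0.314). The mean of the endothelial markers lay between -0.16 and -0.13 in knockout epithelium and between 0.05 and 0.20 in wild-type epithelium, with 5 of 10 markers tested, all 5 negative and 0 called, and here wild-type replicate 3 stayed above every knockout array. The defining endothelial genes Cdh5, Kdr, Tek, Emcn and Tie1 were above background on 0 arrays. The mean of the red blood cell markers lay at -0.55, -0.33 and 0.33 in knockout epithelium and at 0.16, 0.42 and -0.02 in wild-type epithelium, with 6 tested and all 6 negative. The smooth muscle mean lay between -0.21 and 0.0026 in knockout epithelium and between 0.013 and 0.18 in wild-type epithelium, with 5 tested and all 5 negative. No marker of either list was called. Over all features, 17163 of 27916 changes were negative with marked spots left out. The absorptive colonocyte mean, over 10 markers, lay at -0.21, -0.09 and 0.09 in knockout epithelium and at 0.12, 0.19 and -0.11 in wild-type epithelium. Wild-type replicates 1 and 2 were the highest here too, and 0 of 6 tested markers were called. With marked spots kept 0 of 10 were called and 4 had an unadjusted p under 0.05 (limma), which 10.4% of all features had. Of these, Car4, Ceacam1 and Slc9a3 were lower and Guca2b was higher in knockout tissue. The neutrophil mean, from 3 markers above background, lay at -0.23, -0.13 and 0.07 in knockout epithelium and at 0.27, 0.06 and -0.04 in wild-type epithelium. Other lists had a positive median log2 change: fibroblast (0.21), leukocyte (0.12), goblet (0.11) and epithelium (0.07, or -0.05 with marked spots kept). All 5 tested goblet and 7 of 9 leukocyte markers were positive, and none of these lists held a called marker. The fibroblast mean lay at -0.56, 0.06 and 0.68 in knockout epithelium and at 0.48, -0.37 and -0.29 in wild-type epithelium. Whether handling or other cells have a part in the levels of Egln3, Bnip3 and Car9 was not tested.

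Positions on the slide allow a comparison of animals within a column, since columns 1 and 2 each hold 1 array of each genotype. In column 1 and in column 2 the knockout array lay below the wild-type array by -0.69 and -1.19 for Egln3, by -0.67 and -0.52 for Bnip3, by -0.52 and -0.38 for Adm and by -0.35 and -0.21 for Car9. The differences were -0.21 and -0.03 for Slc2a1 and -0.22 and -0.36 for Hk2, both negative as well. Pgk1, Ldha, Vegfa and Pfkfb3 had differences of opposite sign in the 2 columns. Wild-type replicate 3 is in neither column, so these differences share the animals of the comparison without it. Both replicates 3 were alone in their columns, 3 for knockout and 4 for wild type. With the column as a term in the fit the change therefore came only from the arrays of columns 1 and 2. In that fit no member passed, and the lowest adjusted p among the members was 0.122, for Egln3 (limma, marked spots kept).

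The member that varied most over the 6 arrays with marked spots left out was Bnip3, with an SD of 0.43, where the median over all features was 0.22 and the 90th percentile 0.49. Over the 6 arrays, the profiles most like that of Bnip3 among 12645 genes, by the root mean square of the difference after centring, were those of Tas2r137 (0.0575), Prss51 (0.0783) and Gm13288 (0.0905). With marked spots kept Egln3 varied most, with an SD of 0.53, and its nearest profiles among 17653 genes included those of Pard3bos1 (0.0794) and Vmn1r240 (0.0842). The genes named here as like Bnip3 or Egln3 were dim, at levels between -7.29 and -3.95. The nearest of so many profiles over 6 arrays is a description, and no relation between the genes was tested.

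The wider pathway was read from 10 lists with 159 genes, of which 111 were tested, and 0 passed in either direction. An unadjusted p under 0.05 was found for 12 of the 111, 8 higher and 4 lower, a share near the 10.7% of all features. In the list of other glycolysis enzymes, 18 of 20 were tested, the median log2 change was -0.02 and none reached an unadjusted p of 0.05. Among those with the smallest p in it were Aldoc, an aldolase, with -0.31 ± 0.17, and Eno3, an enolase, with -0.20 ± 0.13. Hk1, the constitutive hexokinase, had -0.03 ± 0.13. Aldoc lay at 0.34, 0.34 and 0.45 in knockout epithelium and at 1.0, 0.70 and 0.37 in wild-type epithelium, with wild-type replicates 1 and 2 the highest and wild-type replicate 3 within the knockout range.

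**Figure D4:**
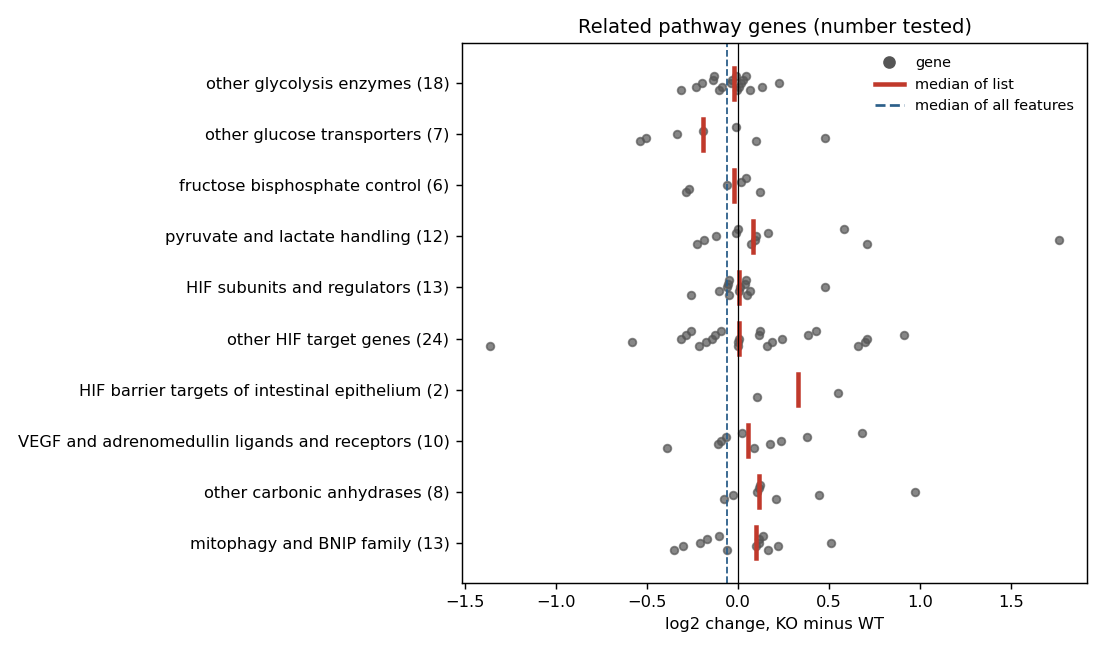
Log2 change of the tested genes of 10 related pathway lists, miR-31 knockout minus wild type (horizontal axis), with the median of each list in red and the median over all features as a dashed line. Each point is a gene and none passed the adjusted threshold; the outlying points are Stc2 at -1.36 and Pdk4 at 1.76.

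Of the other glucose transporters, 7 of 12 were tested, with a median of -0.19. That median was -0.030 with normexp background correction and -0.014 with no filter on dim probes. Slc2a9, a urate carrier, had -0.54 ± 0.19, Slc2a6 had 0.48 ± 0.28 and Slc2a2, the low-affinity glucose carrier, had -0.19 ± 0.14 (adjusted p = 0.379, 0.591 and 0.662, limma). Slc2a3, the high-affinity carrier of neurons, was well above background on 2 arrays only and was not tested. All 6 genes that control fructose bisphosphate were tested, with a median of -0.02, and Tigar had -0.27 ± 0.14, Pfkfb1 -0.29 ± 0.25 and Pfkfb4 0.12 ± 0.14.

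Pyruvate and lactate handling held the larger changes among metabolic genes. Of 17 genes 12 were tested, the median was 0.08, and 3 reached an unadjusted p of 0.05, all higher in knockout tissue, beside 10.7% of all features in either direction. With marked spots kept all 17 were tested, 4 reached that p and the median was -0.04. Among the 4 was Mpc1, a subunit of the mitochondrial pyruvate carrier, singled out after its values were seen. It had -0.42 ± 0.16 by a probe marked on 5 arrays (limma, adjusted p = 0.426). With marked spots left out Mpc1 was read from another probe, which gave -0.00022 ± 0.12. Ldhb, the lactate dehydrogenase subunit that favours pyruvate, lay at -0.48, -0.0020 and -0.16 in knockout epithelium and at -0.72, -0.71 and -0.94 in wild-type epithelium, without overlap. Its change of 0.58 ± 0.16 did not pass (limma, adjusted p = 0.296). The monocarboxylate carrier Slc16a7 had 0.71 ± 0.23 (SE, n = 3 and 2, adjusted p = 0.366). Pdk4, a kinase that shuts off pyruvate dehydrogenase in fasting, lay at -0.68, -0.28 and 0.89 in knockout epithelium and at -2.90, -2.28 and -0.18 in wild-type epithelium, so that replicate 3 was the highest of each group, and its change was 1.76 ± 0.73 (adjusted p = 0.455). With the slide column in the fit the change of Pdk4 was 2.11 and it passed (limma, adjusted p = 0.0170). That change came from replicates 1 and 2 only, without the replicates 3 in which Pdk4 was highest. Pdk1, a target of HIF, had -0.19 ± 0.20, and the lactate exporter Slc16a3 had 0.16 ± 0.28.

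Of the HIF subunits and regulators 13 of 17 were tested, with a median near 0 and none at an unadjusted p of 0.05. Hif1a lay at 2.33, 2.51 and 2.13 in knockout epithelium and at 2.76, 2.76 and 2.23 in wild-type epithelium, again with wild-type replicate 3 at the knockout level, and had a change of -0.26 ± 0.19 (limma, adjusted p = 0.672). Arnt2 had 0.48 ± 0.24. Epas1, the second alpha subunit, had -0.05 ± 0.12, and the hydroxylases Egln1 and Egln2 had 0.05 ± 0.16 and -0.11 ± 0.13. Vhl had 0.04 ± 0.14, and Hif1an, which blocks the activation domain of HIF, had -0.06 ± 0.25.

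Among other HIF targets 24 of 37 were tested, 12 with a positive and 12 with a negative change. Stc2, which encodes the glycoprotein stanniocalcin, came nearest to the threshold of any listed gene. It lay at -1.59, -1.32 and -1.38 in knockout epithelium and at -0.04, 0.26 and -0.42 in wild-type epithelium, and all 3 knockout arrays lay below all wild-type arrays. Its change was -1.36 ± 0.19 (SE, n = 3 and 3; limma, adjusted p = 0.0721), so it did not pass. It passed with normexp background correction (0.0123), array weights (0.0292), a trended robust variance (0.0111) and the slide column in the fit (0.0322). The last of these fits took the change from replicates 1 and 2 only. Angptl4, an inhibitor of lipoprotein lipase, went the other way, at -0.26, 0.43 and 0.41 in knockout epithelium and -0.85, -0.90 and -0.41 in wild-type epithelium, with a change of 0.91 ± 0.23 (adjusted p = 0.267). P4ha2, a collagen prolyl hydroxylase subunit, had 0.43 ± 0.18. Of the HIF targets linked to the intestinal barrier 2 of 8 were tested: Tff3, the trefoil peptide of goblet cells, had 0.11 ± 0.12 and Ckb, a creatine kinase, had 0.55 ± 0.29.

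The ligands and receptors around Vegfa and Adm gave 10 of 15 tested genes and a median of 0.05. Ramp2 and Ramp3, partners of the adrenomedullin receptor, had 0.68 ± 0.24 and -0.39 ± 0.14, and Vegfb had 0.38 ± 0.19 (adjusted p = 0.388, 0.398 and 0.562, limma). Ramp2 was dim, at levels between -7.31 and -5.88 and well above background on 5 arrays. Its change was 0.13 with normexp background correction. Of the other carbonic anhydrases 8 of 14 were tested, with a median of 0.12, and Car11 had 0.97 ± 0.24, Car3 0.44 ± 0.21 and Car13 0.11 ± 0.15. Of the mitophagy and BNIP genes 13 of 17 were tested, with a median of 0.09. Bnip1 had -0.31 ± 0.12 and Pink1, a kinase that accumulates on damaged mitochondria, had -0.36 ± 0.17. Bnip3l, the closest relative of Bnip3, could be tested only with marked spots kept, and its log2 change was -0.0049 ± 0.13.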

How the data were processed

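Colonic epithelium of 3 miR-31 knockout and 3 wild-type mice was measured on 6 arrays. The deposited scanner files hold the intensity of each spot, background-subtracted by the authors with Agilent Feature Extraction, version 11.5.1.1 per the file headers and 10.7 per the submitters' processing notes. The series table deposited by the authors repeats that intensity on a linear scale, within 0.01 log2 units for 99.7% to 99.8% of values. Its column medians were 259, 228 and 241 for knockout and 231, 234 and 247 for wild-type replicates, and it showed no centring.

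Here log2 of the processed intensity minus the 75th percentile of each array over the 59305 non-control spots was used. Spots carrying a non-uniformity, population outlier or manual flag were removed, and spots of a probe were averaged. Accessions were named through NCBI RefSeq (GRCm38.p6), which gave a symbol for 33767 of 56605 probes. Probe coordinates are not given, because the design is on mm9. A gene was represented by its probe with the highest mean, and was tested when well above background on at least 3 arrays with at least 2 unmarked arrays per group. Tests were two-sided moderated ones from limma 3.58.1 under R 4.3.3 (functions lmFit and eBayes), with Benjamini-Hochberg adjustment over all features and a threshold of 0.05, and were tested on simulated data. Errors are SE from limma. The number of arrays limits the precision. The titles of replicates 1 and 2 of both genotypes begin with the same digits, and those of both replicates 3 do not. The digits were read here as animal numbers, which no label states, and this split was tried as a block. No label pairs single animals.

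Every member was named. From each pathway list the 3 genes with the smallest p were named, with a set of regulators whatever their values, and a few genes that the rule names are not reported here. The members and lists were chosen with earlier results of these data known. Alternatives were normexp background correction, which used median signals because the files hold no mean signal, other scalings, filters and variance models, the mean of a gene's probes (each centred first, a step set after a first version averaged probes with missing arrays unevenly), slide column and animal number as blocks, marked spots kept, the series table, and each array left out.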

Additional observations from a re-analysis of the deposited data

How the results depend on the processing

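No member passed under any alternative run. No probe of a member passed in the 13 alternatives in which probes were fitted on their own. Those did not include array weights, the trended robust variance or the blocks. The 58 features called became 100 with normexp, 35 with no filter on dim probes, 33 when every array had to be above background, 105 with array weights, 106 with a trended robust variance and 222 with the slide column as a block, and 8 (knockout replicate 2 left out) to 91 (knockout replicate 3 left out) with 1 array left out, and 17 without knockout replicate 1 and 18, 26 and 35 without wild-type replicates 1, 2 and 3. The causes were not tested. The members' median ran from -0.12 to 0.024 with 1 array left out, the highest value being that without WT replicate 3. There Hk2 had too few unmarked arrays to be tested, and Vegfa was read from another probe. With marked spots kept and all 10 members tested, the median without WT replicate 3 was -0.18, against -0.14 with all arrays. Several log2 changes near 0 turned sign. With normexp Vegfa had -0.012, Epas1 0.010 and Egln1 -0.023. With marked spots kept Vegfa had -0.020 and Hif1an, through a brighter probe, 0.25, and with the series table, which carries no marks, -0.015 and 0.26. Hk1 had 0.015 with median centring, Pfkfb3 0.078 with array weights, and Car13 -0.018 and Vhl -0.086 with the slide column as a block. With 1 array left out Pfkfb3 ran from -0.31 to 0.17, Vegfa from -0.015 to 0.18, Epas1 from -0.085 to 0.016, Vhl from -0.060 to 0.11, Hk1 from -0.13 to 0.028, Slc16a3 from -0.0038 to 0.27 and Hif1an from -0.27 to 0.099. The 0.18 of Vegfa, without wild-type replicate 3, came from another Vegfa probe. With marked spots kept, 8 of 10 members and 19392 of 32275 features were lower, and 9 of 10 members with normexp or the slide column besides. For normexp and the slide column the median over all features was -0.036 and -0.080. Medians of pathway lists also moved. Without wild-type replicate 3 they were -0.35 for fructose bisphosphate control, -0.10 for mitophagy, -0.028 for pyruvate and lactate handling and -0.086 for VEGF and adrenomedullin, the last being -0.13 without knockout replicate 2. With the slide column as a block they were -0.15, -0.00012, -0.024 and -0.051 for the same lists in that order. With the animal number as a block 59 features and 0 members passed. Blocks used features measured on all 6 arrays. With the slide column as a block only replicates 1 and 2 of each genotype bore on the change, since both replicates 3 were alone in their columns. Groups of 3 arrays limit what could be called.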
